A study of Mus musculus with 12 samples.

Results

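The regions described here are stretches of open chromatin that carried an ATAC-seq peak in every library of regulatory T cells (Tregs) taken from bone marrow, in no library of conventional T cells, and in at most 1 of the 2 libraries of Tregs induced in culture (iTregs). Overlapping peaks from the 12 lists, by 1 bp or more, were joined into 76882 regions, and 324 of these (0.421%) met the rule; they are called member regions. Members were chosen by the presence and absence of peaks in the 12 lists, so those values are given as a description and carry no test.

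ATAC-seq marks accessible DNA through the insertion sites of a transposase. The study transferred 6.5TCR T cells, CD4 cells with a transgenic receptor for influenza hemagglutinin, into Aire-HA hosts, which carry that antigen under the control of the Aire gene, and sorted T cell subsets from the bone marrow 14 days later. All 6 groups had 2 libraries and the strain label Balb/c, and all were sorted as CD3+CD4+. Donor Tregs were CD45.1-CD45.2+ cells that had converted and carried CD25 and LAP, the latency peptide of TGF-beta. Host tTregs and host pTregs were sorted as CD45.1+CD45.2+ cells with CD25 and CTLA4, tTregs with Nrp1 and pTregs without it. iTregs were sorted for CD25 and LAP after induction in culture, and their names give WT Balb/c as the source. Donor Tconv were transferred CD45.1-CD45.2+ cells that had not converted, and host Tconv were CD45.1+CD45.2- cells, called WT in the titles and Aire-HCO in the library names; both lacked CD25. The protocol gives 2000 to 15000 sorted cells per experiment. The labels do not tie libraries to animals, so every p below measures only how these samples vary, and that variation may be technical.

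Tregs restrain other T cells and depend on the transcription factor Foxp3. Those that arise in the thymus are called tTregs and those that convert from conventional cells in the body pTregs; iTregs are made in culture with TGF-beta and can lose their identity. Stable Treg identity is known to go with a chromatin state, set partly in enhancers far from gene starts, that forms over time in the animal.

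In a check of the labels, all 12 lists had a peak in the body of Foxp3, Il2ra, Ctla4, Ikzf2, Lrrc32, Cd3e, Cd3d, Cd3g, Cd4 and Trac. No list had one in Tnfrsf18 or in the 2 promoter windows of Foxp3, so peaks at these genes do not separate the groups. Of the markers of other cells, Csf1r, Ncr1, Hba-a1 and Cd34 had no peak in any list, Lyz2 had one in both iTreg lists only, and Pax5, Spi1, Gata1, Klf1 and Itgam had one in all 12. Of the markers that differed between groups, the NK gene Klrb1c had a peak in 5 of the 6 in vivo Treg lists and in no iTreg or Tconv list, while Ncr1 had none. Cd8a had one in no in vivo Treg list, in both iTreg lists and in all 4 Tconv lists, and Cd8b1 in 5 in vivo Treg lists and all 6 others. Ms4a1 had one in 1 in vivo Treg list, Cd79a in 1 in vivo Treg list, both iTreg lists and 1 Tconv list, and Kit in 3 in vivo Treg lists, both iTreg lists and all 4 Tconv lists. The part of other cells in the member calls was not tested. The lists held 28394 to 37934 peaks in in vivo Tregs, 58357 and 63207 in iTregs and 37050 to 47193 in Tconv, so members were missing from lists that were longer than every in vivo Treg list, except that host Tconv replicate 1 had fewer peaks (37050) than host pTreg replicate 1 (37934). How many reads stand behind a list is unknown, and the absence of a peak does not show that chromatin was closed. A number in the library names was 17000 or less in in vivo Tregs and 42000 or more in iTregs and Tconv. Host Treg libraries carried the run code DR31, donor Treg and all Tconv libraries BW13, and iTreg libraries none. Donor Tregs and Tconv thus shared a run code, but in vivo Tregs and all other libraries cannot be told apart from that number, donor and host Tregs cannot be told apart from the run code, and iTregs cannot be told apart from culture or from their lack of a code.

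Few members lay at gene starts. Of the 324, 8 (2.47%) overlapped a RefSeq promoter window, which runs from 250 bases before to 50 after an annotated start, against 14.0% of all regions and 35.1% of the 24296 regions with a peak in all 6 in vivo Treg lists. In 6 of the 8 the peaks of all 6 in vivo Treg lists covered the start itself. The 250 bases upstream of those 6 starts are printed below, as member sequence could be read here only within promoter windows. The printed windows of S100a4 and 1700001D01Rik also reach past the edge of their member. Each sequence runs 5′ to 3′ on the strand of its gene and ends at the base before the start (RefSeq, GRCm38.p6, the assembly behind mm10). Capitals mark matches to the motifs searched. The first window belongs to a member inside Sh3rf1 and the second to a member near Ccr7; the other 4 were chosen after their values were seen.
1700001D01Rik: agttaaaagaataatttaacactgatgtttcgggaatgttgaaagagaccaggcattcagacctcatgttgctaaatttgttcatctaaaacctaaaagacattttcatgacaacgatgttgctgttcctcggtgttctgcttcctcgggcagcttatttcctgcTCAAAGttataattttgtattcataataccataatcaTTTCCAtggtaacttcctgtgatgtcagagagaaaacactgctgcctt
Gm32249: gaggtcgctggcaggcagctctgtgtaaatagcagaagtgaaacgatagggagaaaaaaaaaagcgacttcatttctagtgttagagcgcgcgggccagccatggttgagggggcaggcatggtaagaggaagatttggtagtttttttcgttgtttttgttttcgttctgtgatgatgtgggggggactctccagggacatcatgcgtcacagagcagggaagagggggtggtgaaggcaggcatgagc
Noxa1: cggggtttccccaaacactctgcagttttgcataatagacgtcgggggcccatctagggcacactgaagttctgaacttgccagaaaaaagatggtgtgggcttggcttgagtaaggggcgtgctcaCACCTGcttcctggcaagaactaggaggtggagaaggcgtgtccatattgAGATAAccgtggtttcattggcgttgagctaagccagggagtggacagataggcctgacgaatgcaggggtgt
Src: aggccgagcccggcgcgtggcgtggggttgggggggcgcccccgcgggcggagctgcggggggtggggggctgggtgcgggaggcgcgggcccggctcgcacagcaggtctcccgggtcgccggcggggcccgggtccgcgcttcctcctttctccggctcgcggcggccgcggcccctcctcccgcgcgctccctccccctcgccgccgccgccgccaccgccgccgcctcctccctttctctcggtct
S100a4: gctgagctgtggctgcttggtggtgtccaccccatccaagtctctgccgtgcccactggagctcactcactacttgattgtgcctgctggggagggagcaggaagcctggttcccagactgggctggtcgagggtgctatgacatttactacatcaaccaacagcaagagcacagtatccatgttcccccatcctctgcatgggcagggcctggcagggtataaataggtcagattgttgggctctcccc
Sh3bgrl2: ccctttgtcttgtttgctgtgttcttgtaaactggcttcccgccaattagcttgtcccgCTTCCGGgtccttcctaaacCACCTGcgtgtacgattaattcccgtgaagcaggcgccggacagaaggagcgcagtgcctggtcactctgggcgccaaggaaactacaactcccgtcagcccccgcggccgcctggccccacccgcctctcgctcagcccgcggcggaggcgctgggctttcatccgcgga
The windows lie at chr8:61288873-61289122 on the minus strand (1700001D01Rik), chr11:99168062-99168311 on the plus strand (Gm32249), chr2:25095206-25095455 on the minus strand (Noxa1), chr2:157424043-157424292 on the plus strand (Src), chr3:90603520-90603769 on the plus strand (S100a4) and chr9:83548088-83548337 on the plus strand (Sh3bgrl2).

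Noxa1 encodes an activator of an NADPH oxidase, Src a tyrosine kinase, and S100a4 a calcium-binding protein of motile cells. The member at S100a4 also had 269 bp in iTreg replicate 1; the members at the other 5 starts had no iTreg peak. Searched on both strands were 11 motifs, and the matches did not overlap each other. The GATA letters AGATAA, present in 9.99% of the 32817 promoter windows of the same length, were found in the Noxa1 window, and the E-box letters CAGGTG (17.2%) in the Noxa1 and Sh3bgrl2 windows. The ETS letters CCGGAAG (6.90%) were found in the Sh3bgrl2 window, and the NFAT letters TGGAAA (18.6%) and TCF letters CTTTGA (13.8%) in the 1700001D01Rik window. The letters for AP-1 (TGANTCA, 6.75%), RUNX (TGTGGTT, 4.39%), forkhead (TGTTTAC, 3.16%), NF-kB (1.41%), STAT (TTCNNNGAA, 7.01%) and nuclear receptors (AAAGGTCA, 1.34%) matched none of the 6. The windows of Src, S100a4 and Gm32249 held no match at all.

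Most members were distal. Within 1 kb of an end of a protein-coding gene lay 13 members (4.01%, or 1.51% where a list had to cover at least 50% of a region), against 36.4% of the regions in all 6 in vivo Treg lists and 16.6% of all regions. The median distance from a member's midpoint to the nearest gene end was 22623 bp, against 5347 bp in the regions of all 6 in vivo Treg lists. The 263 regions with peaks in all 8 Treg lists, iTregs included, and in no Tconv list were placed much like the members, with 4.18% within 1 kb of a gene end and a median distance of 17531 bp. A distal position was thus shared with Treg regions that iTregs did carry. Inside a gene lay 190 members (58.6%), a further 92 lay within 50 kb of one, and 42 (13.0%) were assigned to no gene.

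At the edges of the rule, the share of regions without an established iTreg peak changed in steps. Of the 587 regions (0.764% of all) with peaks in all 6 in vivo Treg lists and no Tconv list, 298 had no iTreg peak, 26 had one in 1 iTreg list and 263 in both, so that 55.2% were members. Among regions with peaks in all 6 in vivo Treg lists, those with at most 1 iTreg list made up 45.8% of 288 regions where 1 Tconv list had a peak, 39.0% of 433 where 2 had, 27.7% of 856 where 3 had and 3.15% of 22132 where all 4 had. The order was the same among regions whose median width was under 300 bp, from 300 to under 600 bp, and 600 bp or more. In the narrowest class the share was 56.5% with no Tconv list and 5.98% with 4, and in the widest class it was 52.1% and 1.43%. Just outside the rule on the other side, 247 regions had no Tconv peak, at most 1 iTreg list and 5 of the 6 in vivo Treg lists; the list that lacked the peak was host tTreg replicate 1, the shortest list, in 84 and donor Treg replicate 1 in 71 of them.

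**Figure D1:**
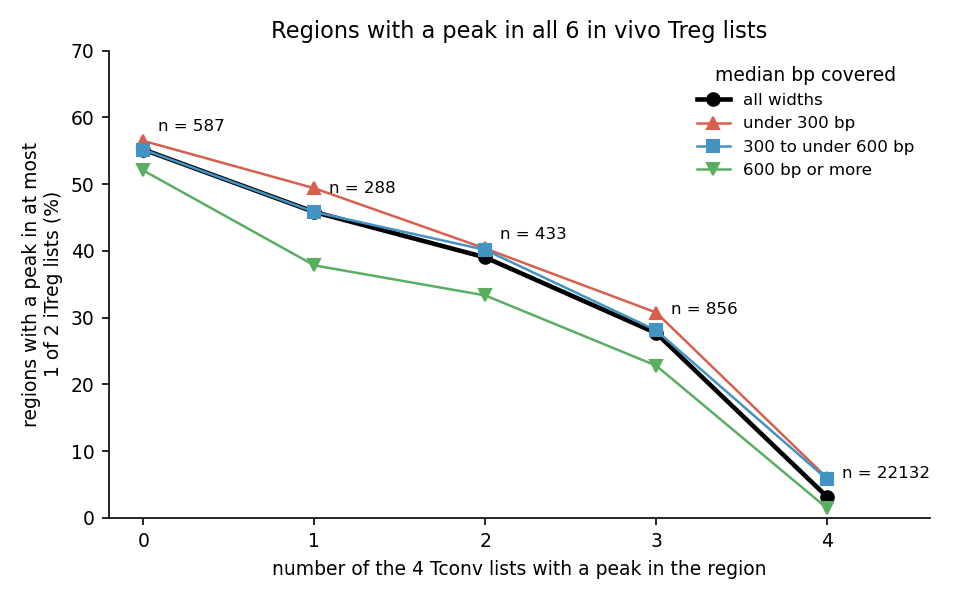
Share of regions (%) with a peak in at most 1 of the 2 iTreg lists, by the number of Tconv lists with a peak (0 to 4), among the 24296 regions with a peak in all 6 in vivo Treg lists; lines stand for classes of median width in bp and n is the number of regions of all widths. The share is 55.2% where no Tconv list has a peak, which are the members, and 3.15% where all 4 have, and it falls in the same order in each width class.

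The 26 members with 1 iTreg list took their iTreg peak from replicate 1 in 6 cases and from replicate 2 in 20. These members had a median width of 352.25 bp in in vivo Tregs, while the iTreg peak had a median of 227 bp and covered 150 to 710 bp. In 18 of the 26 the iTreg peak was narrower than the median in vivo Treg peak. It touched the stretch common to all 6 in vivo Treg lists in 25. Of the 298 members with no iTreg peak, 46 had an iTreg peak within 1 kb, and 72 had none within 10 kb and 19 none within 50 kb; the median distance was 3486 bp. To the nearest Tconv peak the median distance of these 298 was 4176.5 bp, and 38 had one within 1 kb. Most members thus stood more than 1 kb from any iTreg peak, as they did from any Tconv peak. Their genes were seldom bare of peaks in iTregs. Of the 254 genes with a member, 250 also had a region that is not a member. Such a region was carried by both iTreg lists in 248 of the 250 (99.2%), against 95.3% of all 15869 genes with a region that is not a member. Genes with a member had more regions than most, and all 1582 genes with at least 10 such regions had one in both iTreg lists. Of the other regions of those genes, 64.6% were in both iTreg lists, against 72.2% over all genes.

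Members were spread over 254 of the 15873 genes that had any region (1.6%). A single member was held by 233 genes, 15 genes held 2, 5 genes held 3 and Lamc1 held 4. The 28 groups of members lying within 50 kb of each other took in 61 members, and 263 stood alone. Chromosomes 13 and 16 held 27 and 22 members, 0.761% and 0.791% of their regions, and chromosome 19 held 3, or 0.128%. On chromosome 1, 10 of 30 members (33.3%) lay within 20 Mb of Ptprc, against 391 of the 1629 regions in all 6 in vivo Treg lists there (24.0%). Ptprc is the gene of CD45, whose alleles separate donor, host Treg and host Tconv cells in the sort labels; whether the congenic stretch bears on those 10 was not tested.

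Treg identity genes held 11 members. Of 20 core Treg genes, 7 had at least 1 member, and the members made up 4.95% of the list's 222 regions, against 0.421% of all regions. Regions shared by all 8 Treg lists and no Tconv list were 2 of the 222, against 263 of all 76882 regions. Their share in the list was thus also above that of all regions, though it rests on 2 regions. The genes were Il2ra, Ctla4, Tigit, Ikzf2, Ikzf4, Lrrc32 and Itgb8. Foxp3 held none of its 4 regions as a member: 1 of them was in all 6 in vivo Treg lists, and that region had Tconv peaks too. The gene lists were chosen with earlier results of these data known, so the share is a description.

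Il2ra encodes CD25, the high-affinity chain of the IL-2 receptor, and CD25 was a gate of every Treg and Tconv sort, so its regions are tied to the sort. Its first member (chr2:11625833-11626687) lay 16532 bp outside the gene and covered 564 and 397 bp in donor Tregs, 254 and 439 bp in host tTregs and 855 and 444 bp in host pTregs, replicates 1 and 2 in each. The second (chr2:11662719-11663243) lay inside the gene and covered 439 and 473 bp in donor Tregs, 418 and 504 bp in host tTregs and 426 and 440 bp in host pTregs. An iTreg peak lay 137 bp from the second and 2200 bp from the first, and 9 of the gene's 14 regions were in both iTreg lists. The cultured cells thus had many peaks around the gene and none at these positions.

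Ctla4 encodes the inhibitory receptor by which Tregs strip costimulatory ligands from other cells, and its protein was a gate of the host Treg sorts. The member (chr1:60936872-60937579) lay 21393 bp outside the gene and covered 578 and 483 bp in donor Tregs, 356 and 702 bp in host tTregs and 598 and 480 bp in host pTregs. Host tTregs held both the narrowest and the widest value. Tigit encodes another inhibitory receptor, and its member (chr16:43633274-43634495), inside the gene, covered 631 and 534 bp in donor Tregs, 726 and 1222 bp in host tTregs and 729 and 750 bp in host pTregs. Both donor values were below all 4 host values there. The midpoint of this member also lay inside Zbtb20, with a gene end 508 bp away, and the member was assigned to Tigit as the shorter gene.

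Ikzf2 and Ikzf4 encode Helios and Eos, zinc finger factors of the Ikaros family that take part in the Treg program. Both Ikzf2 members lay inside the gene. The first (chr1:69578939-69579302) covered 364 and 327 bp in donor Tregs, 286 and 272 bp in host tTregs and 255 and 192 bp in host pTregs, with the nearest iTreg peak 24180 bp away. Both donor values were above all host values there. The second (chr1:69599094-69599767) covered 287 and 377 bp in donor Tregs, 326 and 667 bp in host tTregs and 356 and 333 bp in host pTregs. Ikzf2 had 34 regions, of which 9 were in both iTreg lists, and 1 of the 34 was of the kind shared by all 8 Treg lists and no Tconv list. The Ikzf4 member (chr10:128641907-128643182), inside the gene, covered 613 and 575 bp in donor Tregs, 381 and 1276 bp in host tTregs and 424 and 448 bp in host pTregs. Host tTreg replicate 2 was far above the other 5 libraries.

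Lrrc32 and Itgb8 act in the activation of latent TGF-beta and held 4 members. Lrrc32 encodes GARP, which holds latent TGF-beta with its peptide LAP on the Treg surface; LAP was a gate for donor Tregs and iTregs. Its member (chr7:98491560-98493601), inside the gene, covered 1874 and 2010 bp in donor Tregs, 551 and 1924 bp in host tTregs and 772 and 641 bp in host pTregs. Both donor values and host tTreg replicate 2 were far above the other 3. The iTreg lists had a peak 399 bp away and carried 6 of the gene's 8 regions. Itgb8 encodes the beta 8 subunit of the integrin that releases active TGF-beta, and 3 of its 8 regions were members, all inside the gene. The first (chr12:119185471-119185902) covered 397 and 384 bp in donor Tregs, 274 and 150 bp in host tTregs and 299 and 238 bp in host pTregs. The second (chr12:119207025-119207671) covered 401 and 583 bp in donor Tregs, 438 and 451 bp in host tTregs and 465 and 337 bp in host pTregs. The third (chr12:119230535-119230904) covered 345 and 341 bp in donor Tregs, 150 and 355 bp in host tTregs and 255 and 239 bp in host pTregs. In the first, both donor values were above all host values; in the others donor and host values overlapped.

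Of 20 TGF-beta pathway genes, 4 held a member, and the list had 6 members in 214 regions (2.80%), against 0.421% of all regions. The members of Lrrc32 and Itgb8 are counted in the core list as well. Beside Lrrc32 and Itgb8 the genes with a member were Tgfbr2, the type II receptor, and Skil, a repressor of Smad-driven transcription. The Tgfbr2 member (chr9:116208095-116208658), 33013 bp outside the gene, covered 432 and 377 bp in donor Tregs, 361 and 564 bp in host tTregs and 441 and 460 bp in host pTregs. For Skil (chr3:31104948-31105312, inside the gene) the values were 269 and 292 bp in donor Tregs, 260 and 362 bp in host tTregs and 303 and 321 bp in host pTregs. Donor and host values overlapped at both.

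**Figure D2:**
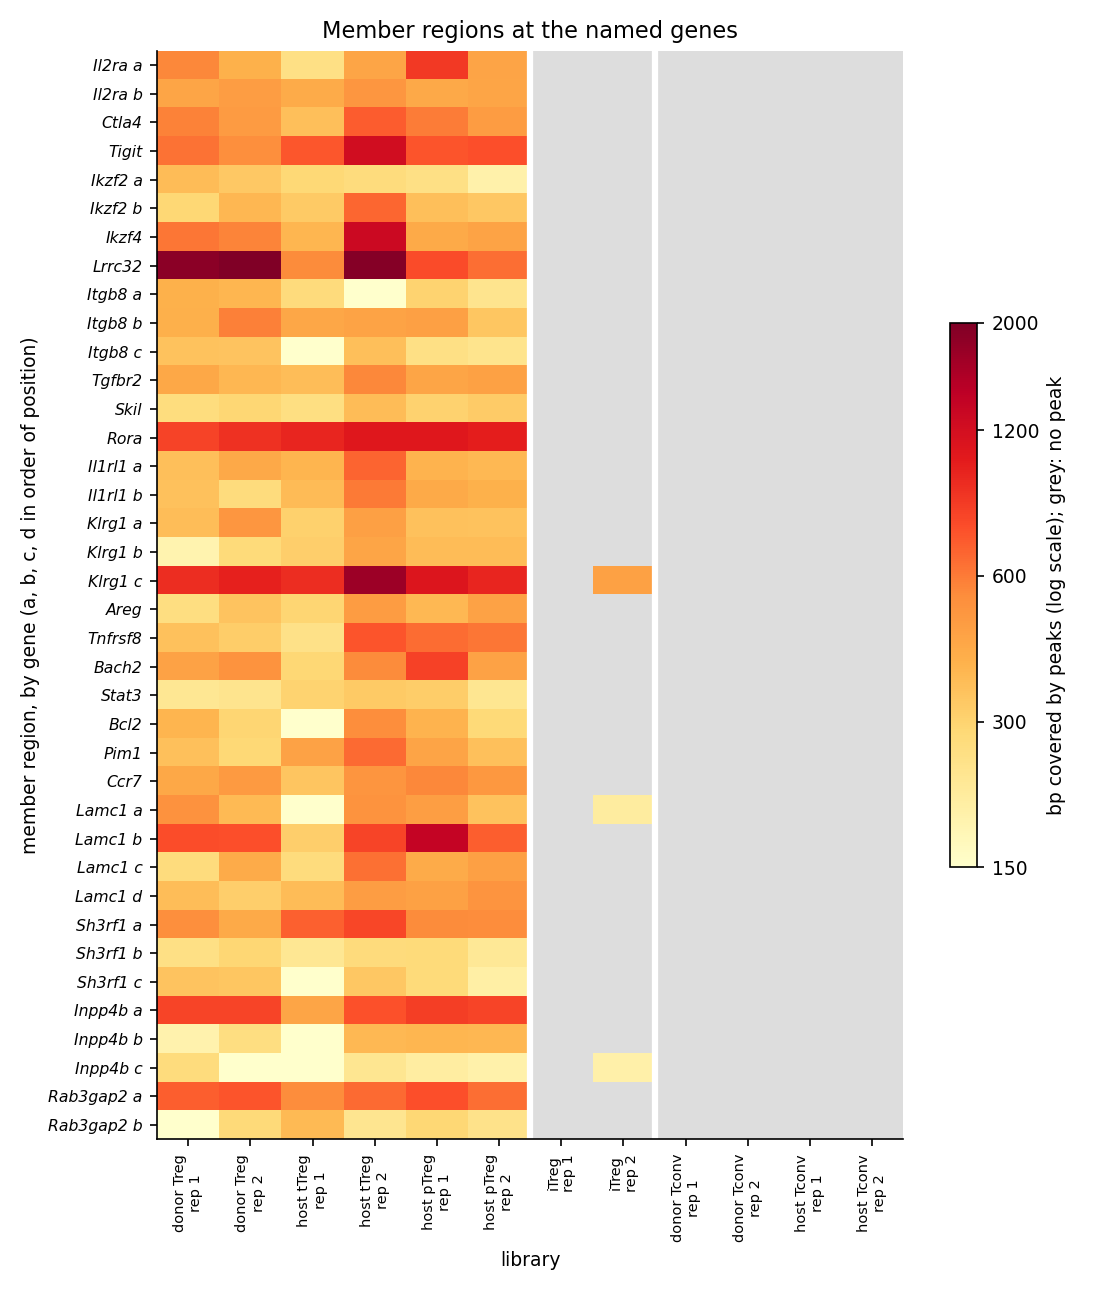
Width in bp covered by peaks (colour, log scale) of the members at the named genes, from the identity genes to those with many members, in each of the 12 libraries; grey marks no peak. By the rule every cell of the 6 in vivo Treg libraries is filled and every Tconv cell is empty; at Klrg1, Lamc1 and Inpp4b 1 member each has a peak in iTreg replicate 2.

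Effector and tissue Treg genes formed the second list with many members. Of 20 genes, 5 held a member, with 8 members in 219 regions (3.65%), against 0.421% of all regions. Regions of the kind shared by all 8 Treg lists were 4 of the 219, against 263 of all 76882. A share above that of all regions was thus not particular to members in this list. Il1rl1 encodes ST2, the receptor for IL-33 found on tissue Tregs. Its members (chr1:40425240-40425910 and chr1:40427106-40427711) both lay inside the gene. The first covered 357 and 427 bp in donor Tregs, 388 and 671 bp in host tTregs and 389 and 373 bp in host pTregs, and the second 350 and 271 bp in donor Tregs, 367 and 606 bp in host tTregs and 423 and 400 bp in host pTregs. At the second, both donor values were below all host values. Areg encodes amphiregulin, a growth factor of tissue repair, and its member (chr5:91124050-91124586), 15281 bp outside the gene, covered 263 and 342 bp in donor Tregs, 293 and 476 bp in host tTregs and 374 and 453 bp in host pTregs. It was 1 of only 3 regions assigned to Areg, of which 2 were in both iTreg lists.

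Klrg1 encodes an inhibitory receptor of differentiated T cells; 3 of its 10 regions were members and 2 were in both iTreg lists. The member inside the gene (chr6:122274443-122274947) covered 359 and 502 bp in donor Tregs, 307 and 465 bp in host tTregs and 348 and 347 bp in host pTregs. A second (chr6:122283466-122283907), 853 bp outside, covered 187 and 278 bp in donor Tregs, 311 and 442 bp in host tTregs and 363 and 364 bp in host pTregs. The third (chr6:122293187-122294896) covered 926 and 996 bp in donor Tregs, 921 and 1710 bp in host tTregs and 1104 and 967 bp in host pTregs, and 458 bp in iTreg replicate 2. Its in vivo widths all exceeded the iTreg width. The nearest iTreg peak lay 15338 bp from the first and 7746 bp from the second.

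Rora encodes a nuclear receptor, and its member (chr9:69339800-69340897), inside the gene, covered 806 and 902 bp in donor Tregs, 967 and 1076 bp in host tTregs and 1072 and 1020 bp in host pTregs. Both donor values were below the host values. Rora was unlike Klrg1 in that 40 of its 51 regions were in both iTreg lists and 3 regions were shared by all 8 Treg lists and no Tconv list. Tnfrsf8 encodes CD30, and its member (chr4:145284425-145285153), inside the gene, covered 348 and 314 bp in donor Tregs, 250 and 729 bp in host tTregs and 644 and 617 bp in host pTregs. An iTreg peak lay 553 bp from it.

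The other lists held few members. Of 15 genes of the IL-2 and STAT5 axis, 3 had one, with 4 members in 141 regions (2.84%), against 0.421% of all regions. The genes were Il2ra, Bcl2, which protects from cell death, and Pim1, a survival kinase. The members of Il2ra are counted in the core list as well. The Bcl2 member (chr1:106561027-106561589) covered 385 and 293 bp in donor Tregs, 150 and 539 bp in host tTregs and 392 and 282 bp in host pTregs. The Pim1 member (chr17:29477340-29477995) covered 353 and 284 bp in donor Tregs, 454 and 656 bp in host tTregs and 443 and 353 bp in host pTregs. Donor and host values overlapped at Bcl2, and at Pim1 no host value was below a donor value. Of 20 nuclear factors and partners, 2 held a member, with 2 members in 445 regions (0.449%), near the 0.421% of all regions. These were Bach2, a repressor that keeps T cells from effector fates, and Stat3, which relays IL-6 and IL-10 signals. In Bach2 (chr4:32287886-32288704) the member covered 456 and 516 bp in donor Tregs, 287 and 548 bp in host tTregs and 819 and 455 bp in host pTregs. In Stat3 (chr11:100912724-100913091) it covered 228 and 237 bp in donor Tregs, 301 and 324 bp in host tTregs and 314 and 233 bp in host pTregs. Donor and host values overlapped at both.

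Ccr7, the receptor that guides T cells to lymph nodes, held the single member of the 12 bone marrow homing genes (1 of 122 regions, 0.820%) and, with Bach2, the 2 members of the 15 naive and quiescence genes (2 of 327 regions, 0.612%). That member (chr11:99167990-99168566) covers the start of Gm32249, whose upstream sequence is printed above, and measured 430 and 486 bp in donor Tregs, 339 and 510 bp in host tTregs and 564 and 499 bp in host pTregs. None of the 15 genes of TCR activation, such as the Nr4a and Egr factors, held a member among 130 regions, a count near the 0.421% of all regions. The 8 lists together named 117 genes, of which 19 held a member, against 254 of all 15873 genes with a region (1.6%). Genes with more regions can more easily hold a member. The 20 core Treg genes had 222 regions, while the median over all genes was 3 regions that are not members.

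**Figure D3:**
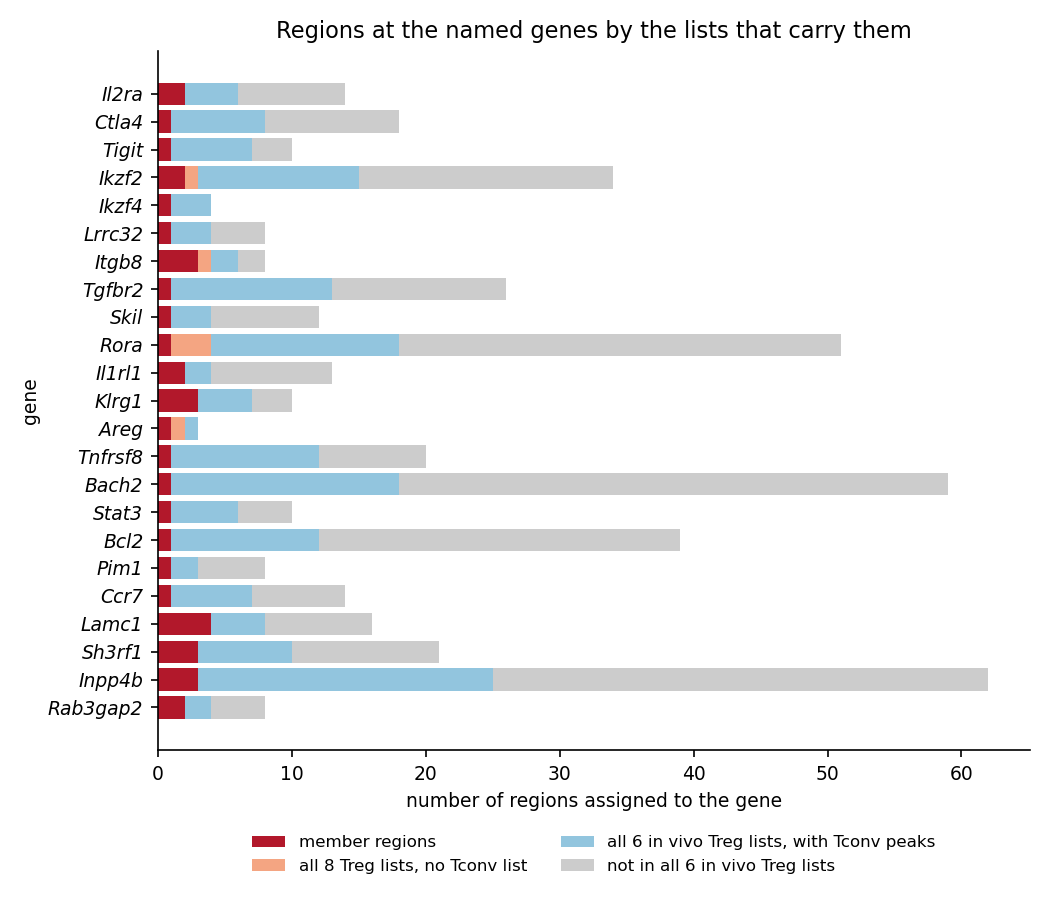
Number of regions assigned to each named gene, split into members, regions of all 8 Treg lists without a Tconv list, regions of all 6 in vivo Treg lists with Tconv peaks, and the rest. Members are a large part of the regions of Itgb8 (3 of 8), Klrg1 (3 of 10) and Lamc1 (4 of 16), and a small part at Bach2 (1 of 59) and Rora (1 of 51).

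Genes outside the lists also held several members each. Lamc1, which encodes the gamma 1 chain of laminin, had 4 members within 65839 bp. They covered 150 to 524 bp (chr1:153281542-153282070), 313 to 1355 bp (chr1:153299430-153300840), 271 to 637 bp (chr1:153317529-153318171) and 313 to 513 bp (chr1:153346843-153347380) over the 6 in vivo Treg libraries. The first of them also had 208 bp in iTreg replicate 2. Of the 16 regions of Lamc1, 7 were in both iTreg lists. Lamc1 lies within 20 Mb of Ptprc.

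Sh3rf1 encodes a scaffold protein of the JNK pathway, and its 3 members covered 425 to 796 bp (chr8:61282421-61283216), 224 to 292 bp (chr8:61288752-61289086) and 150 to 343 bp (chr8:61345286-61345701). The nearest iTreg peak lay 38014 bp from the first and 32144 bp from the second. The second covers the start of 1700001D01Rik, whose upstream sequence is printed above. Inpp4b encodes a phosphatase of phosphoinositides; its members covered 440 to 835 bp (chr8:81611256-81612099), 150 to 383 bp (chr8:81687096-81687510) and 150 to 270 bp (chr8:81867104-81867428), the last with 194 bp in iTreg replicate 2. Rab3gap2, a subunit of a Rab3 regulator, had members of 547 to 755 bp (chr1:185207918-185208716) and 150 to 372 bp (chr1:185217932-185218303).

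Members were narrow. Their median width over the 6 in vivo Treg libraries was 361.5 bp, close to the 358.5 bp of regions shared by all 8 Treg lists, against 684 bp in all regions of the 6 lists. By library the member median was 337.5 and 346 bp in donor Tregs, 299.5 and 466.5 bp in host tTregs and 413.5 and 364 bp in host pTregs. The host tTreg replicates were the lowest and the highest, so they bracketed both other groups. The stretch that peaks of all 6 libraries covered had a median of 233.5 bp, and in 3 members there was none. The widest member lay 31380 bp from Dad1 (chr14:54203126-54205084), a gene next to the T cell receptor alpha locus, and covered 1568 and 1561 bp in donor Tregs, 581 and 1958 bp in host tTregs and 1912 and 1731 bp in host pTregs. Lrrc32, Rora, the third Klrg1 member and Jmjd1c followed, with medians of 1323, 993.5, 981.5 and 977 bp. The narrowest were in Tnrc6a, Nxpe3, Itgad, Cdk17 and Spata5, with medians of 171 to 190.5 bp, near the smallest peak of any list, 150 bp. At 150 bp stood 23 and 14 members in donor Tregs, 35 and 3 in host tTregs and 7 and 15 in host pTregs. Widths cannot fall below that floor, which limits the width differences given below.

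**Figure D4:**
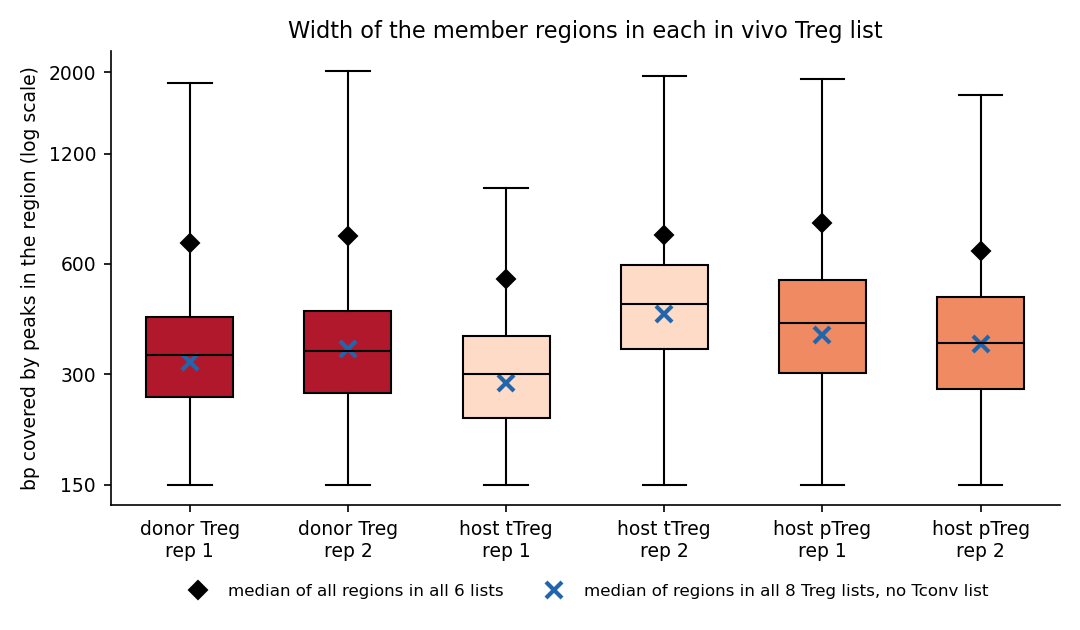
Width in bp (log axis) of the 324 members in each in vivo Treg library; boxes give the quartiles and median, whiskers the range, diamonds the median of all 24296 regions in the 6 lists and crosses the median of regions in all 8 Treg lists without a Tconv list. Member medians run from 299.5 bp in host tTreg replicate 1 to 466.5 bp in host tTreg replicate 2, below the medians of all regions in every library.

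Width among in vivo Tregs was not used by the rule, and was tested over the 24296 regions with a peak in all 6 lists. Widths were compared as log2 bp after each library was centred, by limma with Benjamini-Hochberg adjustment, two-sided. Between donor Tregs and host Tregs, 33 regions were wider (0.136%) and 45 narrower (0.185%) at an adjusted p under 0.05; of the members none was wider and 1 was narrower. Without single libraries 0 to 5 members were narrower and at most 1 wider, with 5 narrower and 1 wider without host tTreg replicate 1 and 0 narrower without host pTreg replicate 2. Among regions of at most 2000 bp 5 were narrower, and with the widest peak as width 2. The member called (chr12:84201619-84203055) lay inside Mideas, which encodes a subunit of a histone deacetylase complex. It covered 428 and 473 bp in donor Tregs, 620 and 1407 bp in host tTregs and 1371 and 1324 bp in host pTregs. Both donor values were below all host values, a difference of -1.39 on the log2 scale (SE 0.204, limma adjusted p = 0.0355). The call was lost without donor Treg replicate 1 (-1.35, adjusted p = 0.0694), without host pTreg replicate 2 (-1.33, 0.0835), without centring (-1.32, 0.667) and with quantile normalization (-1.39, 0.0629), although the difference stayed about as large. The 78 calls over all regions were 27 without host pTreg replicate 2 and 48 without donor Treg replicate 1, but 166 without host tTreg replicate 1 and 150 without host tTreg replicate 2.

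As a group the members leaned to smaller widths in donor Tregs. The difference was negative in 228 of 324 (70.4%), with a median of -0.19, against a median of -0.00 over all regions and 0.01 over 9954 other regions under 600 bp. The lean was not particular to members, since 186 of the 263 regions carried by iTregs as well (70.7%) were negative too, with a median of -0.15. At an unadjusted p under 0.05, 80 members (24.7%) were narrower in donor Tregs and 7 (2.16%) wider, against 5.17% and 4.99% of all regions. Members at list genes differed in both directions without passing the threshold. The smallest limma adjusted p was 0.201, at the second Klrg1 member (-0.76, SE 0.203). Pim1 followed with -0.62 (SE 0.169, limma adjusted p = 0.209), and Lrrc32 had a difference of 1.12 (SE 0.308, limma adjusted p = 0.213). Sh3bgrl2 had the widest donor peaks relative to the host among the printed starts, 416 and 443 bp in donor Tregs, 190 and 297 bp in host tTregs and 201 and 187 bp in host pTregs (0.93, SE 0.184, adjusted p = 0.0908). Donor and host Tregs carried different run codes, so group and run cannot be told apart. The rule also asked for no peak in any Tconv list, and those lists carried the run code of donor Tregs. The comparison of members with all regions may therefore not be independent of how members were chosen, which was not tested.

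Host tTregs and host pTregs, which shared a run code, gave no call among the members. Over all regions 0 were wider in tTregs (0%) and 8 narrower (0.0329%) by limma; the smallest adjusted p of a member was 0.175. The 8 calls were 136 without host tTreg replicate 2, with 3 members narrower, and 0 to 15 without any other single library. At an unadjusted p under 0.05, 35 members (10.8%) were wider in tTregs and 7 (2.16%) narrower, against 2.36% and 3.68% of all regions. The members' median difference was 0.11, against 0.14 in the regions of all 8 Treg lists and 0.04 in all regions. It turned to -0.07 without centring, where the median of all regions moved by -0.18, so that members stood 0.07 above all regions either way. Without host tTreg replicate 2 the members' median was 0.04, and 0.09 in all regions, so that the members' higher standing rests on that library.

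**Figure D5:**
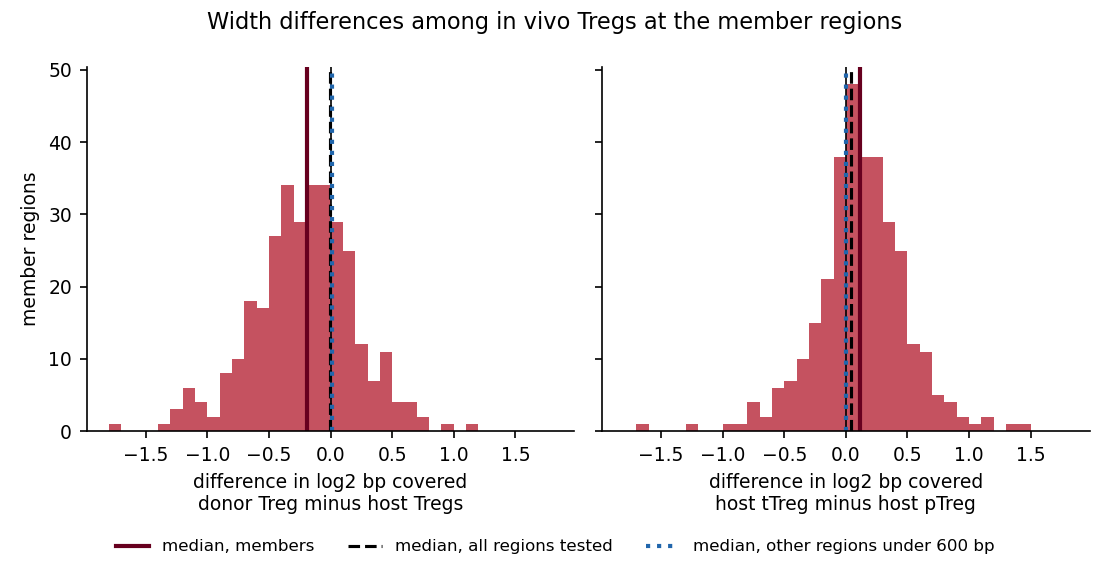
Number of members by difference in log2 bp covered, donor Treg minus host Tregs (left) and host tTreg minus host pTreg (right); the solid line is the median of members, the dashed line that of all 24296 regions and the dotted line that of other regions under 600 bp. Members centre at -0.19 on the left and 0.11 on the right, and the dashed and dotted lines lie at or near 0.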

How the data were processed

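ATAC-seq peak lists of 12 libraries were analysed. Per the submitters' processing notes, the authors used Bowtie2 2.3.3, HOMER 4.10 and bedtools with the mm10 build; the sources used here do not give their roles or settings, any read shift for the transposase, or what the intersection in the file names means. The deposited lists give coordinates, a name and a score, and the authors' score is a constant 1000, so only the coordinates were used. Read depth is unknown.

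Peaks sharing at least 1 bp were merged with pandas 2.3.3 in Python 3.11.15. A region belonged to the protein-coding gene holding its midpoint, or to the shortest if several did. Failing that it went to the closest gene up to 50 kb off (RefSeq, GRCm38.p6, without strand). Distances from a member to a gene are measured from the member's midpoint. Width is the number of bp covered by a library's peaks in a region, log2 transformed, centred on each library's median and fitted with limma 3.58.1 in R 4.3.3 over 24296 regions, with the threshold at an adjusted p of 0.05. The fit was tested on simulated data. Promoter windows exist for 17492 of 21900 coding genes. The planned motif search over the regions was not run, as no genome was used here; upstream windows of 250 bases were searched instead.

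The members and gene lists were chosen with earlier results of these data known. Named are genes with at least 3 members and the 10 genes with most, list genes with a member, the 5 widest and 5 narrowest members, and members past a width threshold, apart from items not reported here. Groups and replicate numbers came from the titles. Alternatives covered merging, the rule, single libraries, and the scaling, blocking and measure of width.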

Additional observations from a re-analysis of the deposited data

How the results depend on the processing

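The number of members, 324, was 904 when every list was cut to the length of the shortest by keeping its widest peaks (198 of the 324 among them) and 571 when 5 of the 6 in vivo Treg lists were enough; leaving out single libraries gave 304 to 408. A list counted only where its peaks covered at least 50% of a region gave 331 members, but with 165 of the 324 among them, and 4 core Treg genes with a member in place of 7, which single libraries moved between 7 and 8. Effector and tissue Treg genes with a member were 8 in place of 5 with 5 of the 6 lists, and 5 to 7 without single libraries. Regions called between donor and host Tregs, 78, were 0 without centring (1225 at an unadjusted p under 0.05) and 27 to 166 without single libraries. Those called between host tTregs and pTregs, 8, were 0 without centring (975 unadjusted), 0 after quantile normalization (1495 unadjusted), 4 with the widest peak as width and 0 to 136 without single libraries, the highest without host tTreg replicate 2. Replicate differences were only weakly correlated between groups (-0.06, 0.10 and -0.15), so no pairing by replicate number was seen. Such correlations cannot exclude shared animals or sort days. With the replicate block the calls were 228 (15 members, all narrower in donor Tregs) and 12. A crossed block, with the host pTreg numbers exchanged, was added after seeing the data and gave 21 and 0 (1616 unadjusted), with no member called. The block results thus depend on the numbering. The Mideas call was lost under 5 of 12 alternatives, with the adjusted p from 0.00431 to 0.667. The cause of these changes was not tested. Lists without depth limit every absence given here.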

Other observations

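Members also lay at genes outside the lists, picked here after their values were seen. Penk, which encodes the precursor of the enkephalins, held a member (chr4:4138608-4139080) that overlapped an end of the gene, with its midpoint 29 bp outside. The member covered 150 and 190 bp in donor Tregs, 354 and 473 bp in host tTregs and 316 and 335 bp in host pTregs. The donor value of 150 bp is the width of the smallest peak of any list. Both donor values were below all host values, and the difference of -1.18 (SE 0.193) missed the threshold (limma adjusted p = 0.0517). No region of Penk was in both iTreg lists; the nearest iTreg peak was 1067 bp away and the nearest Tconv peak 163257 bp. Pdcd1, the gene of the inhibitory receptor PD-1, held a member 22402 bp outside the gene (chr1:94074583-94075328) of 518 and 550 bp in donor Tregs, 501 and 746 bp in host tTregs and 530 and 599 bp in host pTregs. Tox, which encodes a factor of chronically stimulated T cells, held one inside the gene (chr4:6930554-6931160) of 400 and 447 bp in donor Tregs, 507 and 607 bp in host tTregs and 412 and 534 bp in host pTregs. Gpr15, a homing receptor for the colon, held one 3606 bp away (chr16:58722255-58722701) of 189 to 447 bp. Cd38, an NAD-consuming surface enzyme, held a member (chr5:43871781-43872196) of 192 to 416 bp in in vivo Tregs that had 268 bp in iTreg replicate 2.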
